A study of Homo sapiens with 6 samples.

Results

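The transcriptional coactivators YAP1 and WWTR1 (TAZ), 3 of their TEAD partners (TEAD1, TEAD2 and TEAD4), the kinase LATS2 and the YAP targets CTGF, CYR61, ANKRD1 and AMOTL2 were examined in luminal and luminobasal breast cancer cells. These 10 genes were found by gene symbol among the 25940 gene names of the arrays, and 11 of the 34127 gene probes carry them, because WWTR1 has a pair of probes. All expression values below compare pLB with pLUM, isogenic human lines that descend from T47D, a breast cancer cell line positive for estrogen and progesterone receptors. The pLUM cells came from a xenograft grown in a mouse given estradiol (E) and were sorted for claudin-3 without CD49f. They were cultured in E for about 2 months before the first sort and about 2 months after it. They were maintained in medium with E, and the array cells were treated with 1 nM E for 72 h. The pLB cells came from a xenograft of a mouse given E plus progesterone and were sorted for CD49f without claudin-3. They were cultured in estrogen withdrawal (EWD) for about 2.5 months before the first sort and about 2 months after it. EWD was then continued. Each line is 1 derived population, and its 3 arrays are 3 sorts of RNAlater-fixed cells stained for cytokeratin 5, so that p-values measure the spread between sorts only. The labels do not say which cytokeratin 5 fraction was hybridized. Line, hormone, time in culture before the sort and tumor of origin coincided on all 6 arrays and cannot be told apart.

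In the Hippo pathway, the kinases STK3 and STK4 with their scaffold SAV1 activate LATS1 and LATS2, which act with MOB1 proteins to phosphorylate YAP1 and TAZ and hold them in the cytoplasm. Without that phosphorylation, the coactivators enter the nucleus, bind TEAD transcription factors and turn on genes such as CTGF and CYR61. LATS2 and AMOTL2 are both brakes on YAP1 and targets of it, and so belong to a feedback loop. In breast epithelium, TAZ has been tied to basal identity. Arrays measure RNA, and say nothing of phosphorylation or of where a protein lies in the cell.

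The TEAD factors recognize the core motif GGAATG, which was searched on both strands, as the only motif, in the 250 bases before the start of each gene in RefSeq promoter windows (GRCh38.p14). Windows were matched for 7 of the 10 genes, as 10 windows. The windows of CTGF (named CCN2 in RefSeq), ANKRD1 and AMOTL2 are shown, because these targets carry the most copies or a copy on the opposite strand. Each reads toward the gene start, with GGAATG or its reverse complement in capitals.
CTGF, chr6:131951373-131951622, minus strand: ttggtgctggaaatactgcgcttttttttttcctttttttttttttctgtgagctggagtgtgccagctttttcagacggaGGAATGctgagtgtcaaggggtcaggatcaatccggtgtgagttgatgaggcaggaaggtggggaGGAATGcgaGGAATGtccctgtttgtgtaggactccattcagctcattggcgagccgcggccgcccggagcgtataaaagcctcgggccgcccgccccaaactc
ANKRD1, chr10:90921088-90921337, minus strand: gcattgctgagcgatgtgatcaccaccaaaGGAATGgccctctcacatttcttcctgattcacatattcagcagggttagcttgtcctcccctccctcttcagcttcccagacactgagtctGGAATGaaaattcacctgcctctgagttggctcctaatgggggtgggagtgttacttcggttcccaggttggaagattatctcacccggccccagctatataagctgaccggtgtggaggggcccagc
AMOTL2, chr3:134374448-134374697, minus strand: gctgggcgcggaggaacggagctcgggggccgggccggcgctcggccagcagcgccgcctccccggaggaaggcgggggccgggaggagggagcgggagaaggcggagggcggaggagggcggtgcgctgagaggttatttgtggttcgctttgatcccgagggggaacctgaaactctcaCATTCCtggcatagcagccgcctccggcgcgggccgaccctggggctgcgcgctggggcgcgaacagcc

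The CTGF window held 3 copies, at 169 to 164, 104 to 99 and 95 to 90 bases before the start. Only 0.0826% of all 35116 windows of this length held at least 3. The ANKRD1 window held 2 copies, at 220 to 215 and 128 to 123 bases before the start, and 0.94% of all windows held 2 or more. The second of 2 AMOTL2 windows held 1 copy on the strand opposite the gene, at 69 to 64 bases, and the YAP1 window held 1 copy at 162 to 157 bases. At least 1 copy was present in 11.9% of all windows. No copy was found in the windows of WWTR1, TEAD2 and LATS2, which says only that these letters are not in these stretches. Of 17 further genes of a published YAP and TAZ target signature, 12 had a window and 5 of these held the motif (AXL, FOXF2, NUAK2, PTPN14 and TGFB2). Of 27 other pathway components 23 had a window and 5 held it. Counted by window, as the share of 11.9% is, the signature genes had it in 5 of 13 windows and the components in 5 of 35. The 10 genes above had it in 4 of 10 windows. A match describes the letters and does not show binding.

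**Figure D1:**
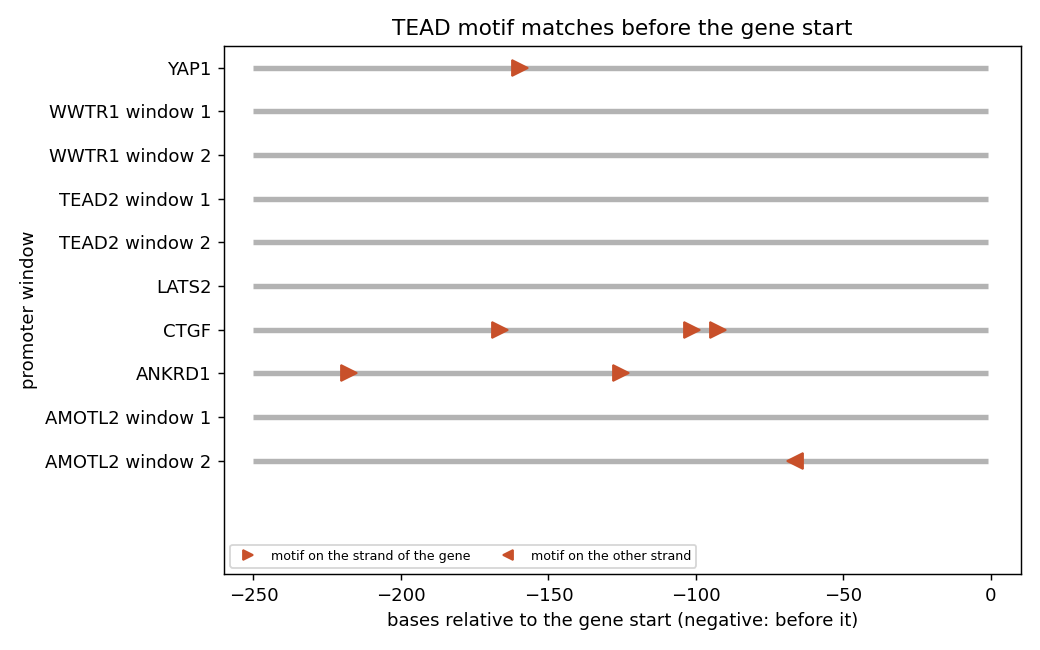
Positions of GGAATG in the 250 bases before the gene start (x axis, in bases) for the 10 promoter windows of 7 genes (y axis). Arrowheads point right for the strand of the gene and left for the other strand. CTGF carries 3 copies and ANKRD1 carries 2, whereas 6 windows carry none.

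The probes are 60 bases long, and paralogs are told apart only as far as their probe sequences differ. The coactivator pair and a TEAD pair are shown with their longest shared run in capitals, because the comparisons below rest on them.
YAP1, chr11:102100584-102100643 in hg19, plus strand: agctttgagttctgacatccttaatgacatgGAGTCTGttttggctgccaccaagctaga
WWTR1, chr3:149238593-149238652 in hg19, minus strand: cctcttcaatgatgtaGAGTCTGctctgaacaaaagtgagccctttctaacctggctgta
TEAD2, chr19:49845695-49845754 in hg19, minus strand: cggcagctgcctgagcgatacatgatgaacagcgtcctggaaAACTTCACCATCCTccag
TEAD4, chr12:3149391-3149555 in hg19, plus strand: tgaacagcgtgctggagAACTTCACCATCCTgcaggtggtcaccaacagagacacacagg

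The YAP1 and WWTR1 probes shared a run of no more than 7 bases and matched at 24 of 45 aligned bases. The TEAD2 and TEAD4 probes lay over a conserved stretch, shared a run of 14 bases, and matched at 32 of 35 aligned bases, or 91.4%. Cross-hybridization between TEAD2 and TEAD4 was not tested. The TEAD4 probe spans 165 bases of the genome, so that its sequence is split by an intron. The other gene probes lay at chr11:12965225-12965284 (TEAD1), chr13:21547929-21547988 (LATS2), chr6:132270130-132270189 (CTGF), chr1:86048953-86049012 (CYR61), chr10:92672562-92672621 (ANKRD1) and chr3:134074742-134074801 (AMOTL2). The second WWTR1 probe, designed on an Ensembl transcript, lay at chr3:149419490-149419549. YAP1 was printed 10 times on each array, and the other genes were printed once per probe.

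Signals are given as log2 of the background-corrected intensity relative to the 75th percentile of the array, which was 449 to 869. A value of 0 is therefore a signal equal to that percentile, and levels of different probes are not comparable. On each array 21285 to 22775 gene probes were well above background, and no gene spot was saturated. Pearson's r across tested probes was 0.984 to 0.991 among pLUM arrays, 0.972 to 0.989 among pLB arrays and 0.780 to 0.806 between lines. Probes are not independent replicates. Defining markers followed the labels, with 7 of 8 luminal markers called lower and 6 of 6 luminobasal markers called higher in pLB. Of all tested genes, 23.0% were called lower and 22.7% higher. CLDN3 and ITGA6 encode the surface proteins the lines were sorted on, and KRT5 encodes the cytokeratin stained for the array sorts. The paper lists all these markers as differing between the lines. Their direction was thus known beforehand and is no independent test of the labels. The fibroblast markers COL3A1, DCN, PDGFRA and PDGFRB were not well above background on any array. COL1A1 was well above background on all 6, with a mean log2 signal of -0.27 for pLUM and -0.83 for pLB, and was not called (limma adjusted p = 0.124). COL1A2, the other member of that list, had a signal in pLB at least 11.5-fold above pLUM, and the list's summed signal was 0.767 to 0.966 in pLUM and 0.786 to 1.14 in pLB times the 75th percentile. The sums were 0.0728 to 0.108 and 0.0937 to 0.207 for 4 endothelial markers, and 0.196 to 0.321 and 0.258 to 0.384 for 4 leukocyte markers, in pLUM and pLB respectively. PECAM1 and KDR were not well above background on any array, CDH5 was on all 6, and VWF was on the 3 pLB arrays and no pLUM array and was called higher in pLB (limma adjusted p = 0.0088). Of the leukocyte markers, PTPRC, CD14 and CD68 were well above background on all 6 arrays, and CD68 was called higher in pLB, by 2.87-fold (limma adjusted p = 0.000391). Their part in the results was not tested, and in RNA of sorted populations fewer cells with a transcript and less transcript per cell cannot be told apart.

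YAP1, WWTR1, TEAD4, CTGF, CYR61 and AMOTL2 were higher in pLB by at least 2-fold with a Benjamini-Hochberg adjusted p under 0.05 in limma. TEAD1, TEAD2 and LATS2 were not called, and ANKRD1 was too dim to test. Thus 6 of the 9 tested genes were called higher and 0 lower, where 22.7% of all 17670 tested genes were called higher and 23.0% lower. WWTR1 was counted by its probe with the higher mean over all 6 arrays, a choice decided by the pLB arrays. With the mean of the probes of each gene, 5 of the 9 were called higher, where 3866 of all 17670 genes were. CTGF passed the filter, which required a signal well above background on at least 3 arrays, only through its pLB arrays. Among the 8 genes well above background on all 6 arrays, 5 were called higher and the median log2 fold change was 1.39. Of all 14729 genes that met this filter, 3041 were called higher and 3026 lower. Read as arrays rather than calls, the 3 pLB values lay above the 3 pLUM values for 8 of the 9 tested genes, CTGF included, against 35.7% of all genes above and 33.5% below. The median log2 fold change was 1.49 for the 9 tested genes and 0.04 for all tested genes.

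**Figure D2:**
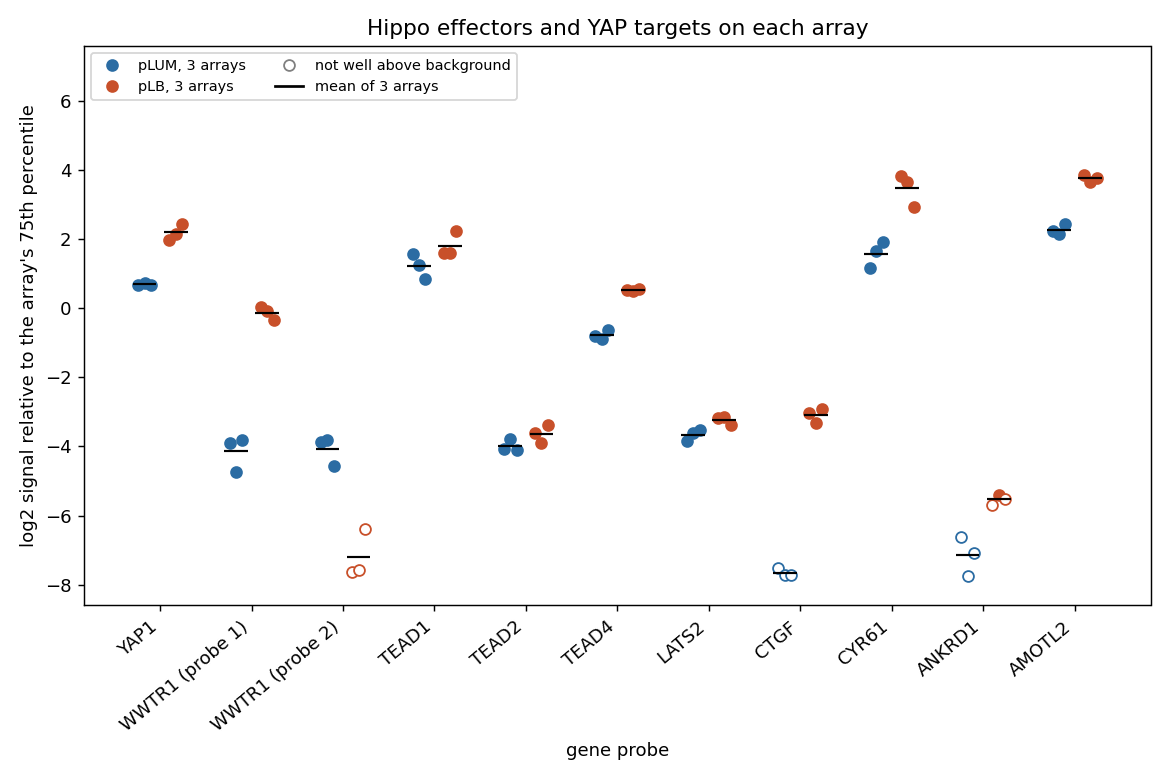
Log2 signal relative to the 75th percentile of the array (y axis) for 11 probes of 10 genes (x axis), with 1 point per array, from replicate 1 on the left to replicate 3 on the right, and a bar at the mean of 3 arrays. Hollow points were not well above background: all pLUM values of CTGF, all pLB values of the second WWTR1 probe and 5 of 6 values of ANKRD1. Probe 1 of WWTR1 is the RefSeq probe. Only TEAD2 overlaps between the lines.

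YAP1, the coactivator that gives the target program its name, was at 0.69, 0.74 and 0.68 on pLUM replicates 1, 2 and 3 and at 1.99, 2.15 and 2.46 on the pLB replicates. The pLUM arrays lay within a narrow range, and the lowest pLB array was well clear of it. YAP1 RNA rose 2.82-fold in pLB (log2 fold change of 1.50 ± 0.18 SE, n = 3 arrays per line, limma adjusted p = 0.000275). Within slide 1, which held all pLUM arrays and pLB replicate 1, the difference was 1.28.

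WWTR1 encodes TAZ, the paralog of YAP1, and moved further by its RefSeq probe. This probe read -3.89, -4.75 and -3.80 on the pLUM arrays and 0.04, -0.08 and -0.33 on the pLB arrays. All 6 signals were well above background and the lines were far apart. WWTR1 rose 16.2-fold in pLB (a log2 fold change of 4.02 ± 0.28 SE, n = 3 arrays per line, limma adjusted p = 2.1e-05), and the difference within slide 1 was 4.19. With normexp background correction in place of the scanner's own correction, its log2 fold change was 2.25.

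The second WWTR1 probe went the opposite way. It read -3.87, -3.81 and -4.55 on the pLUM arrays and -7.63, -7.57 and -6.40 on the pLB arrays, none of the latter well above background. Its decrease in pLB was at least 2.32-fold (limma adjusted p = 0.000295 for the fitted change, not the bound). This probe was the only one of the 10 tested member probes called lower, where 23.7% of all tested probes were called lower and 21.9% higher. The probes lie far apart on chromosome 3 and were designed on different transcripts. Under normexp this probe was not called. The mean of both WWTR1 probes gave a log2 fold change of 0.45 with a limma adjusted p of 0.0808, so that the call for WWTR1 rests on its RefSeq probe.

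The coactivators were also set against each other. Only the change between lines is read from this, since a fixed offset between the probes cancels in it. Subtracting the YAP1 value from that of the WWTR1 RefSeq probe on each array gave -5.49 to -4.48 in pLUM and -2.79 to -1.94 in pLB. The lines did not overlap, and WWTR1 rose 5.76-fold more than YAP1 (difference of log2 changes 2.53, exact two-sided permutation p = 0.1, the smallest that 3 arrays against 3 allow). Under normexp, the difference was 0.79 (exact permutation p = 0.2), and with the mean of both WWTR1 probes it was -1.04.

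The TEAD factors are the DNA-binding partners through which YAP1 and TAZ reach their targets. Of the 3 examined, TEAD4 was called higher in pLB and the other two were not called. TEAD4 read -0.80, -0.89 and -0.63 on the pLUM arrays and 0.52, 0.50 and 0.55 on the pLB arrays. The pLB values were nearly equal, and no pLUM value came close to them. TEAD4 rose 2.45-fold (a log2 fold change of 1.29 ± 0.16 SE, n = 3 arrays per line, limma adjusted p = 0.000289), with a difference of 1.29 within slide 1.

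TEAD1 read 1.58, 1.26 and 0.85 on the pLUM arrays and 1.61, 1.60 and 2.24 on the pLB arrays. The highest pLUM array and the lowest pLB array were almost level, and the arrays of each line spread widely. Its log2 fold change of 0.59 had a 95% interval of -0.04 to 1.21 (limma adjusted p = 0.0926). TEAD2 read -4.09, -3.77 and -4.11 on the pLUM arrays and -3.60, -3.90 and -3.39 on the pLB arrays, with overlap of the lines. Its log2 fold change was 0.36, with an interval of -0.11 to 0.83 (limma adjusted p = 0.154), and turned to -0.30 under normexp. For TEAD2 a difference of more than 2-fold lay outside the interval, whereas for TEAD1 a 2-fold increase lay within it.

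LATS2, the kinase that phosphorylates YAP1 and TAZ and is itself a YAP target, differed little. It read -3.83, -3.62 and -3.53 on the pLUM arrays and -3.17, -3.13 and -3.37 on the pLB arrays. The lines did not overlap, but the gap between the nearest arrays was small. The log2 fold change was 0.44, with a 95% interval of 0.04 to 0.83 (limma adjusted p = 0.0531), and was -0.16 under normexp. Within slide 1, the differences of the genes not called were 0.38 for TEAD1, 0.39 for TEAD2 and 0.50 for LATS2.

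AMOTL2, an angiomotin that holds YAP1 at cell junctions and is induced by it, was at 2.25, 2.16 and 2.45 on the pLUM arrays and 3.87, 3.67 and 3.78 on the pLB arrays. The lines were clearly apart, with tight replicates in pLB. AMOTL2 rose 2.81-fold in pLB (a log2 fold change of 1.49 ± 0.16 SE, n = 3 arrays per line, limma adjusted p = 0.000188), and the difference within slide 1 was 1.58.

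Among the secreted targets, CYR61 (CCN1), a matricellular protein that binds integrins, was bright in both lines. It read 1.16, 1.66 and 1.93 on the pLUM arrays and 3.84, 3.66 and 2.95 on the pLB arrays. The replicates of each line varied more than for AMOTL2, but the lowest pLB array stood above the highest pLUM array. CYR61 rose 3.72-fold in pLB (a log2 fold change of 1.90 ± 0.30 SE, n = 3 arrays per line, limma adjusted p = 0.00118), and the difference within slide 1, where pLB replicate 1 is the brightest pLB array, was 2.26.

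CTGF (CCN2), the matricellular growth factor whose promoter carries the 3 motif copies shown above, was detected in pLB alone. Its intensity was 2.60, 2.64 and 2.69 on the pLUM arrays and 107, 69.7 and 59.0 on the pLB arrays. On the log2 scale these are -7.51, -7.73 and -7.72 in pLUM and -3.02, -3.32 and -2.93 in pLB. No pLUM signal was well above background, so that its level in pLUM has only an upper bound. With the scanner's own background correction, CTGF was at least 4.89-fold higher in pLB. The limma adjusted p of 1.6e-06 belongs to the fitted change, which uses the dim pLUM values, and not to this bound. With dim signals set to the array floor, it was 2.2e-05. The bound takes the lowest signal well above background on each pLUM array as the pLUM level. Under normexp, the fitted log2 fold change was 0.57 with an adjusted p of 0.257, and CTGF was not called.

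ANKRD1, a nuclear ankyrin-repeat protein and a strongly inducible YAP target in many cells, was near the limit of detection. Its log2 signal was -6.62, -7.75 and -7.09 on the pLUM arrays and -5.68, -5.40 and -5.51 on the pLB arrays. Every pLB value was above every pLUM value, but pLB replicate 2 was the only one of 6 arrays well above background. ANKRD1 was therefore not tested in the main comparison and no fold is given. With no filter on dim probes it was called higher in pLB (limma adjusted p = 0.00504).

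**Figure D3:**
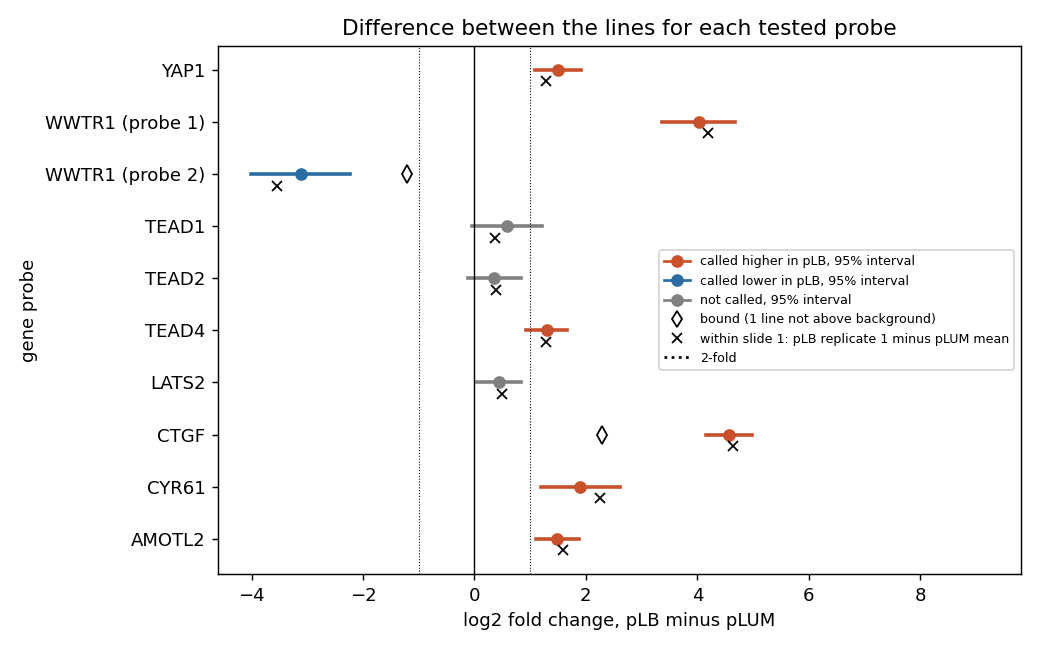
Log2 fold change of pLB over pLUM (x axis) with its 95% interval from limma for the 10 tested probes (y axis), coloured by call. Diamonds give bounds for CTGF and the second WWTR1 probe, and crosses give the difference within slide 1. That difference uses pLB replicate 1 alone, which is also part of the fit, so its sign is no independent check.

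The rest of the pathway was read from a list of 27 further components, of which 25 could be tested. Of these, 11 were called higher in pLB (44%) and 1 lower (4%), with 13 not called, where 22.7% of all tested genes were called higher and 23.0% lower. FAT1 passed the filter through its pLB arrays alone. Among the 22 components well above background on all 6 arrays 9 were called higher and 1 lower. Of all 14729 such genes, 3041 were called higher and 3026 lower. The median log2 fold change of the 25 was 0.63, beside 0.04 for all genes. The kinase core (STK3, STK4, SAV1, LATS1, MOB1A and MOB1B) had 2 of 6 genes called higher, or 33.3%. STK4 is 1 of these 2, and its other tested probe did not get the same call. STK3 and MOB1B were counted as not called, although 1 other probe of each was called. Upstream regulators had 5 called higher and 1 lower of 10 tested, angiomotins and LIM proteins had 2 of 5 called higher, and the TEAD and VGLL factors had 2 of 4. FAT4 and DCHS1 were not tested, since neither was well above background on 3 arrays.

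The largest increases among these components were upstream of the kinases and among TEAD cofactors. FAT1, a giant protocadherin that signals to the Hippo kinases, reached a signal well above background only in pLB. There it was higher by at least 21.6-fold (limma adjusted p = 6.1e-06 for the fitted change, not the bound). FRMD6, a FERM-domain protein of the upstream complex, rose 12.8-fold from a mean of -2.97 ± 0.27 (SD, n = 3) to 0.72 ± 0.15 (limma adjusted p = 6.6e-06). NF2 encodes merlin, the tumor suppressor that recruits LATS kinases to the membrane, and rose 5.24-fold from 1.47 ± 0.19 to 3.86 ± 0.17 (limma adjusted p = 3.1e-05).

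VGLL1 and VGLL3 are vestigial-like proteins, which bind TEAD factors on the surface that YAP1 also uses. VGLL1 was 4.41-fold higher in pLB (limma adjusted p = 0.000282), but only 1 of its 3 pLUM signals was well above background. VGLL3 was 4.10-fold higher (limma adjusted p = 0.000253), from -2.82 ± 0.34 (SD, n = 3) to -0.79 ± 0.28. The single component called lower was RASSF1, a scaffold for the STK3 and STK4 kinases, which fell by 1.00 on the log2 scale, just past the 2-fold threshold (limma adjusted p = 0.00184). The count called lower was 0 when pLUM replicate 1, pLB replicate 1 or pLB replicate 2 was left out, 2 without pLB replicate 3 and 3 with slide as a block. The paralogs LATS1 and TEAD3, chosen after their values were seen, had log2 fold changes of -0.93 (limma adjusted p = 0.0563) and -0.81 (limma adjusted p = 0.00282, under 2-fold), whereas those of LATS2 and TEAD4 were 0.44 and 1.29. The difference within either pair was not tested. Under normexp, 7 of the 25 components were called higher, where 2563 of all 17670 genes were. With the mean of the probes of each gene, 10 of the 25 were called higher, where 3866 of all 17670 genes were.

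Further YAP targets were read from the 17 genes of a published conserved YAP and TAZ signature that are not among the 10 genes above. Of the 13 that could be tested, 11 were called higher in pLB (84.6%), 1 was called lower and 1 was not called. DOCK5 is 1 of these 11, and its other tested probe did not get the same call. The background of genes called higher was again 22.7%, and the medians were 2.00 for these targets and 0.04 for all genes. CCDC80, IGFBP3 and TGFB2 passed the filter through their pLB arrays alone. Without these, 8 of 10 targets were called higher and 1 lower, an alternative added after the data were seen. The filter on all 6 arrays gave the same counts, where 3041 of 14729 genes were called higher. CRIM1, FOXF2, NT5E and RBMS3 were not tested.

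IGFBP3, a secreted binding protein for insulin-like growth factors, stood clear of background only in pLB. Its level there was at least 164-fold above pLUM (limma adjusted p = 3.3e-07 for the fitted change, not the bound). AXL, a receptor tyrosine kinase for GAS6, rose 21.7-fold from -4.15 ± 0.17 (SD, n = 3) to 0.29 ± 0.41 (limma adjusted p = 6.8e-06). The pLUM signal of AXL was as dim as that of the WWTR1 RefSeq probe, whose fold fell under normexp. For AXL alone the fold under normexp was not read. CCDC80, an extracellular matrix protein, was at least 4.20-fold higher (limma adjusted p = 6.5e-05 for the fitted change, not the bound). FJX1, a homolog of a Drosophila regulator of Fat signaling, rose 4.86-fold (limma adjusted p = 7.2e-05), and F3, the tissue factor that starts coagulation, rose 4.70-fold (limma adjusted p = 1.7e-05). ARHGEF17, a guanine nucleotide exchange factor, went against the rest of the list and was 2.50-fold lower in pLB (limma adjusted p = 0.000432). MYOF, a membrane-repair protein and the only target not called, was chosen after its values were seen and had a log2 fold change of -0.47 (limma adjusted p = 0.0309). Under normexp, 7 of the 13 targets were called higher, where 2563 of all 17670 genes were. With the mean of the probes of each gene, 10 of the 13 were called higher, where 3866 of all 17670 genes were.

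**Figure D4:**
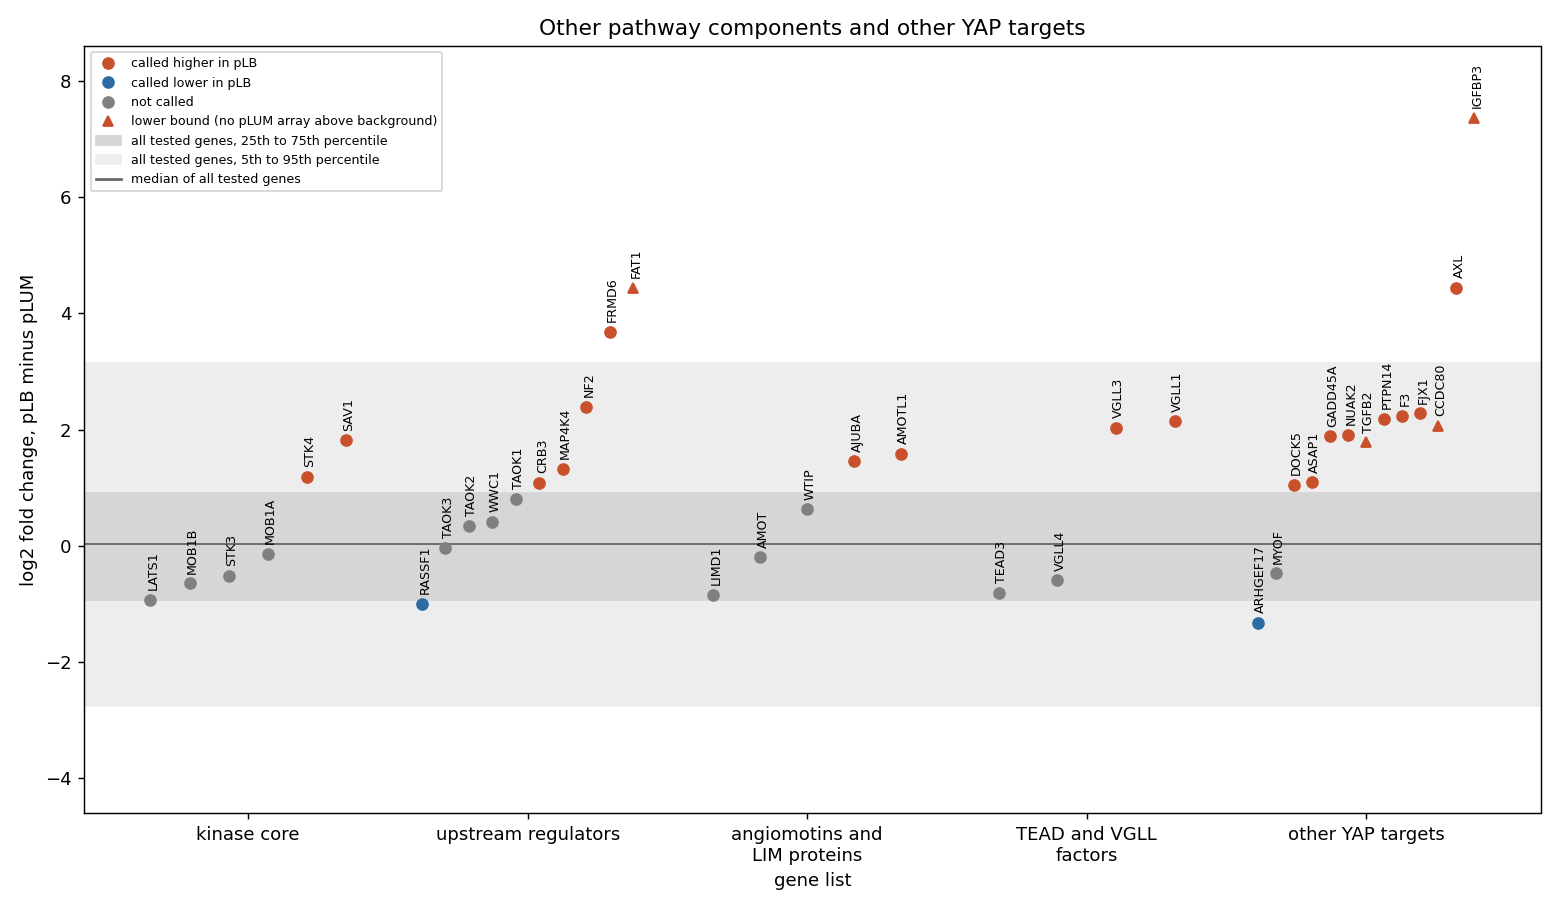
Log2 fold change of pLB over pLUM (y axis) for 25 other pathway components, in 4 groups by role, and 13 other YAP targets (x axis), each point a gene coloured by call. Triangles are lower bounds for FAT1, TGFB2, CCDC80 and IGFBP3, grey bands span the 25th to 75th and 5th to 95th percentiles of all tested genes, and 11 of 13 targets lie above the 75th percentile at 0.92.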

How the data were processed

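RNA of 3 pLUM and 3 pLB sorts was measured on 1-colour Agilent arrays. The authors deposited, for each array, the intensity of every spot from Agilent Feature Extraction 10.10.1.1, corrected for background and not normalized between arrays. The tool Partek is named in the submitters' processing notes without a role. Probe positions are those of the files (hg19). Promoters are from RefSeq (GRCh38.p14).

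Control spots and spots with an outlier flag (296 to 387 per array, none of a member) were left out, log2 intensities were set against each array's 75th percentile, and replicate spots were averaged per probe. Probes had to be well above background on 3 arrays or more. The 23105 that were entered the moderated linear model of limma (version 3.58.1, R 4.3.3), with Benjamini-Hochberg adjustment over all of them and calls at 2-fold and adjusted p under 0.05. The probe with the highest mean represented a gene. The fit was run on simulated data with independent values and a fixed size of change in a small share of probes. That setting is simpler than these arrays and does not test the calls made here. Where no array of 1 line gave a signal well above background, a bound is reported, which holds for the scanner's own background correction only. The p-value beside it is that of the fitted difference, which uses the dim values, and does not test the bound. Named genes are the 10 members with every probe, the 5 largest called changes in each direction of both lists, and, by name only, list genes too dim to test. Marker genes of other cell types come from lists as well. LATS1, TEAD3, MYOF and, for its probes, DOCK5 were added after their values were seen. Members and lists were chosen with earlier results of these data known. Alternatives changed the background correction (normexp), scaling (quantile, median, spike-in), dim-probe filter, threshold, test, probe rule or block, or left out 1 array. The plot of the lists labels every tested gene. The number of arrays limits the precision.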

Additional observations from a re-analysis of the deposited data

How the results depend on the processing

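Across 18 alternatives, YAP1 kept log2 fold changes of 1.28 to 1.75 (limma adjusted p 0.000117 to 0.00475), TEAD4 of 1.11 to 1.55, CYR61 of 1.68 to 2.26 and AMOTL2 of 1.29 to 1.74, and all 4 were called under each. Members called higher numbered 5 to 7, and the count of 7 came with no filter on dim probes, where ANKRD1 was called. Without that filter 4317 of 25940 genes were called higher. With normexp background correction, which adds an offset of 50, member probes called lower fell to 0, components called higher to 7 and lower to 0, targets called higher to 7, CTGF had a log2 fold change of 0.57 (not called), and TEAD2 and LATS2 turned to -0.30 and -0.16. Under normexp the median of all genes was -0.21, and 2563 of 17670 genes were called higher and 3089 lower. Requiring all 6 arrays well above background left 0 member probes called lower, since the second WWTR1 probe was no longer tested. Components called lower numbered 0 with spike-in scaling, 3 with no fold threshold, 3 with slide as a block, and 0 to 2 with an array left out. Targets called higher numbered 9 of 13 without pLB replicate 3, where 4107 of 17670 genes were called higher. The count was 10 without pLUM replicate 2, without pLUM replicate 3 and with slide as a block. It was 12 of 17 with no filter on dim probes. Targets called lower numbered 2 with no fold threshold. With the mean of the probes, WWTR1 was not called, and its change relative to YAP1 reversed to -1.04, whereas leaving out an array gave 2.20 to 2.76. Spike-in scaling moved the median of all genes to 0.29 and that of the tested members to 1.74. Beyond the construction of each setting, the cause was not tested. With the replicate number as a block, 6 members were called higher. Samples sharing a number had correlated deviations of -0.27, -0.10 and -0.22, and none was most like its own number. With 3 arrays per line and pLB replicates 2 and 3 alone on slide 2, this cannot exclude a pairing of the samples. Signal over background limits CTGF, ANKRD1, the second WWTR1 probe, FAT1, IGFBP3, CCDC80, TGFB2 and VGLL1. The WWTR1 RefSeq probe, TEAD2, LATS2 and AXL were also dim in pLUM. Under normexp the log2 fold change of WWTR1 fell to 2.25, beside the turns of TEAD2 and LATS2 given above.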
